A study of Mus musculus with 68 samples.

Results

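The SINE subfamilies of the mouse genome were described in the RNA of embryonic stem cells (ESCs) with altered recycling of parental histones. The members were the 35 repeat subfamilies of class SINE among the 1146 repeat subfamilies counted in each of 3 count tables, which held 56481 genes and repeat subfamilies in all. They fell into the Alu family, named B1 in the mouse (16 subfamilies), the B2 family (5), the B4 family (4), the ID family (4), the MIR family (4) and the Deu family (2). One subfamily of the uncertain class "SINE?" was not a member. Every one of the 35 passed the filter on low counts in every comparison, so no member was dropped for a low value.

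SINEs are short retroelements that encode no protein and are copied with the reverse transcriptase of L1 elements. RNA polymerase III can transcribe them from a promoter inside the element, B1 derives from the 7SL RNA of the signal recognition particle, B2 and ID derive from tRNA genes, B4 joins ID-like and B1-like parts, and MIR and AmnSINE elements are old families shared with other mammals or other amniotes. Many copies lie in introns and untranslated regions of genes, so reads over a SINE can come from the element itself, from a host transcript or from genomic DNA, and the counts used here do not tell these sources apart.

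RNA was sequenced from E14JU ESCs (129/Ola background) grown in serum and LIF on gelatin. The rescue experiment compared 3 lines with 4 cultures each, the POLE4 experiment 4 lines with 3 libraries each, and the clone experiment 8 MCM2-2A clones with 8 WT clones in 42 samples. MCM2-2A cells carry mutations in the histone-binding domain of MCM2, a replicative helicase subunit that passes parental histones to the lagging strand, and MCM2-R#2 is the MCM2-2A#2 clone with the mutations reverted. POLE4-KO cells lack POLE4, a subunit of DNA polymerase epsilon that passes parental histones to the leading strand, and WT#1 is the wild-type clone that served as the reference of both experiments. Each of MCM2-R#2, MCM2-2A#2, POLE4-KO#1, POLE4-KO#2, POLE4-KO#3 and WT#1 is 1 clone, so a difference between lines holds for those clones, and p values measure the spread between cultures or libraries of a clone. The sample titles of MCM2-R#2 gave a line number and genotype at odds with the column names and the description of the study, and the column names were followed.

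The cultures of the rescue experiment held 23161127 to 61759096 counts, the POLE4 libraries 18369196 to 26975105 counts, the August clones, each the sum of 2 libraries, 63371053 to 96123038 counts and the March libraries 47978626 to 62598125 counts. Pole4 had 2.98, 2.89 and 3.79 CPM in POLE4-KO#1, 6.998, 6.39 and 8.24 CPM in POLE4-KO#2 and 3.31, 2.99 and 4.91 CPM in POLE4-KO#3, against 56.5, 62.1 and 60.7 CPM in WT#1. Mcm2 had 206 to 217 CPM in MCM2-R#2 and 217 to 232 CPM in MCM2-2A#2, against 399 to 440 CPM in WT#1, so the reverted and the mutant clone shared a lower Mcm2 level. The summed level of 8 ESC markers was 2996 to 3378 CPM in POLE4-KO#1, 2497 to 3097 CPM in POLE4-KO#2 and 2325 to 2565 CPM in POLE4-KO#3, against 2687 to 3167 CPM in WT#1, and lay between 3148 and 3555 CPM in all rescue cultures.

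CPM here is the count scaled to the library's total over genes and to its factor from the trimmed mean of M values (TMM), also taken over genes. A SINE subfamily was called changed where edgeR's quasi-likelihood test gave an adjusted p below 0.01 together with a log2 fold change beyond 0.58 in either direction. Fold changes are given as log2 ± standard error. Levels of different subfamilies are not compared, since subfamilies differ in summed copy length.

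In MCM2-2A#2 the SINE subfamilies lay slightly above WT#1 without a call. The log2 fold changes of the 35 subfamilies had a median of 0.17 and ran from -0.00 to 0.36, with 34 above 0 (86.3% of all repeat subfamilies tested were above 0). None passed the limits (edgeR; 1.93% of all 879 repeat subfamilies tested were called higher), 13 had an unadjusted p below 0.05, all higher, and DESeq2 also called 0. Without the fold limit 6 were higher at an adjusted p below 0.05 (6.94% of repeat subfamilies), namely B1_Mus2, B1_Mm, B1_Mus1, B2_Mm2, B2_Mm1a and AmnSINE1. The same 6 were the SINE subfamilies in which every MCM2-2A#2 culture lay above every WT#1 culture (11.1% of repeat subfamilies did so). The median over all repeat subfamilies was 0.19 and that over 159 DNA transposon subfamilies 0.15. The SINE median was 0.08 without MCM2-2A#2 culture 4 and ran from 0.12 to 0.23 without any 1 of the other cultures.

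The summed SINE level was 22334, 22109.5, 23297 and 25201 CPM in MCM2-R#2 cultures 1 to 4 and 24689, 25199, 23566 and 26884 CPM in MCM2-2A#2, against 22046, 20915, 20517 and 21989 CPM in WT#1. All MCM2-2A#2 cultures lay above all WT#1 cultures, those of MCM2-R#2 also lay above WT#1, culture 2 by a narrow margin, and MCM2-R#2 overlapped with MCM2-2A#2. SINE subfamilies took 2.06 to 2.33% of all counts in MCM2-R#2 and 2.31 to 2.52% in MCM2-2A#2, against 1.95 to 2.13% in WT#1.

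**Figure D1:**
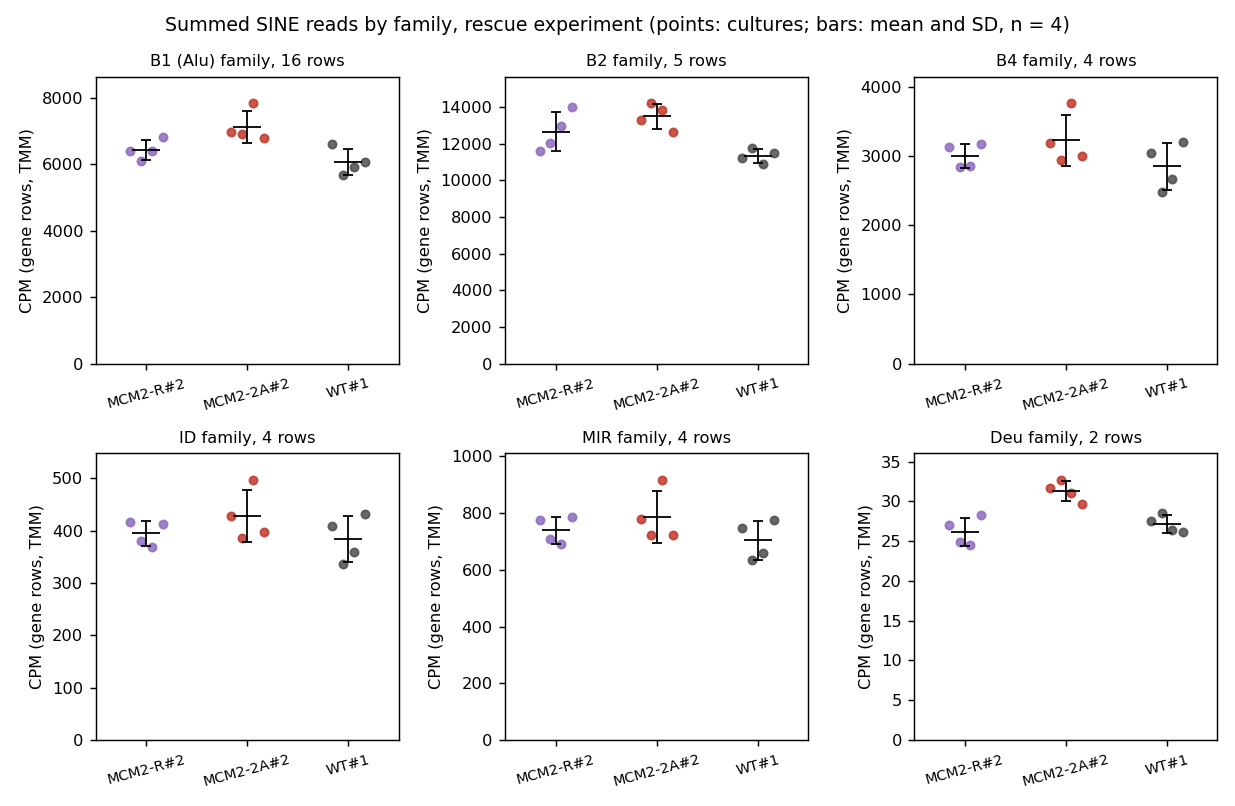
Summed CPM of the SINE families in the rescue experiment, 1 panel per family, with 1 point per culture (4 per line), horizontal bars at the mean and error bars of 1 SD for MCM2-R#2, MCM2-2A#2 and WT#1 (rows in the panel titles are subfamilies). The B2 sums of MCM2-2A#2 (12618 to 14204 CPM) lie above those of WT#1 (10900.3 to 11768 CPM), while the B4 and MIR points of the 3 lines overlap.

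Within the B1 elements the largest log2 fold changes belonged to the subfamilies named for the mouse. B1_Mm had 502, 484, 581 and 574 CPM in MCM2-R#2 and 610.2, 649, 598 and 607 CPM in MCM2-2A#2, against 481, 484, 476 and 490.0 CPM in WT#1. The MCM2-2A#2 cultures of B1_Mm stood clear of those of both other lines (log2 fold change over WT#1 0.35 ± 0.06, adjusted p = 0.00152). B1_Mus1, the B1 subfamily with the highest count in WT#1, had 1147, 1088, 1189 and 1262 CPM in MCM2-R#2 and 1311, 1343, 1286 and 1385 CPM in MCM2-2A#2, against 1096, 1007, 1043 and 1105 CPM in WT#1 (0.33 ± 0.05 for MCM2-2A#2, adjusted p = 0.0014). B1_Mus2 had 897, 863, 945 and 998 CPM in MCM2-R#2 and 1080.4, 1115, 1072 and 1113 CPM in MCM2-2A#2, against 873, 814, 848 and 883 CPM in WT#1 (0.36 ± 0.05, adjusted p = 0.000371). For both Mus subfamilies the MCM2-2A#2 cultures were again the 4 highest, above all MCM2-R#2 cultures. The adjusted p of these 3 subfamilies was below 0.01 in MCM2-2A#2 and their fold changes lay below the fold limit.

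The B2 family held 3 subfamilies of the mouse, B2_Mm1a, B2_Mm1t and B2_Mm2, and the older B3 and B3A. B2_Mm1a had 4280.3, 4698, 5089.5 and 5368 CPM in MCM2-R#2 and 5037, 5664, 4921 and 5123 CPM in MCM2-2A#2, against 4092, 4759.6, 4147 and 4123 CPM in WT#1. MCM2-2A#2 lay above WT#1 in every culture, WT#1 culture 2 stood apart from the other 3, and MCM2-R#2 overlapped with both lines (MCM2-2A#2 over WT#1 0.28 ± 0.08, adjusted p = 0.0419). B2_Mm1t had 2659, 2847, 3076 and 3334 CPM in MCM2-R#2 and 3145, 3436, 2864 and 3086 CPM in MCM2-2A#2, against 2616, 2891, 2581 and 2573 CPM in WT#1 (0.23 ± 0.07, adjusted p = 0.0772). B2_Mm2 had 2269, 2327, 2559 and 2846 CPM in MCM2-R#2 and 2681, 2853, 2472 and 2749 CPM in MCM2-2A#2, against 2193, 2206, 2118 and 2196 CPM in WT#1 (0.30 ± 0.07, adjusted p = 0.0136). B2_Mm1t overlapped between MCM2-2A#2 and WT#1, and for B2_Mm2 the cultures of both MCM2-2A#2 and MCM2-R#2 all lay above those of WT#1. B3 had 1580.1, 1458, 1518 and 1632 CPM in MCM2-R#2 and 1618, 1519, 1585 and 1923 CPM in MCM2-2A#2, against 1542, 1289, 1376 and 1734 CPM in WT#1 (0.16 ± 0.09, adjusted p = 0.251), and the 3 lines overlapped. B2_Mm1a, B2_Mm1t and B2_Mm2 are close in sequence, as are the young B1 subfamilies, so the counting may have split reads between them and the values of single young subfamilies are uncertain.

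The older families lay a little above WT#1 in MCM2-2A#2, with cultures that overlapped. B4 had 411, 377, 385 and 419 CPM in MCM2-R#2 and 421, 394, 402 and 497 CPM in MCM2-2A#2, against 393, 328, 350.3 and 412 CPM in WT#1 (0.21 ± 0.08, adjusted p = 0.133). ID_B1, the B4-family subfamily with the highest count, had 999, 895, 901 and 1020.2 CPM in MCM2-R#2 and 1041, 941, 944 and 1203 CPM in MCM2-2A#2, against 976, 801, 841 and 1006 CPM in WT#1 (0.19 ± 0.09, adjusted p = 0.2). In both subfamilies MCM2-2A#2 culture 4 was the highest of the 12 cultures and WT#1 culture 2 the lowest. B4A had 781, 712, 716 and 797 CPM in MCM2-R#2 and 785, 725, 727 and 921 CPM in MCM2-2A#2, against 766, 614, 660.0 and 771 CPM in WT#1 (0.17 ± 0.09, adjusted p = 0.228). ID4_, the leading ID subfamily, had 178, 165, 163 and 178 CPM in MCM2-R#2 and 183, 171, 177 and 219.6 CPM in MCM2-2A#2, against 177, 145, 156 and 189 CPM in WT#1 (0.17 ± 0.09, adjusted p = 0.224). In both, MCM2-2A#2 culture 4 was again the highest and WT#1 culture 2 the lowest.

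The ancient MIR elements showed the same spread. MIRb had 314, 284, 283 and 315 CPM in MCM2-R#2 and 312, 289, 296 and 360.1 CPM in MCM2-2A#2, against 298, 255, 267 and 302 CPM in WT#1 (0.16 ± 0.08, adjusted p = 0.198). MIR had 237, 216, 206 and 238 CPM in MCM2-R#2 and 239, 220.0, 217 and 283 CPM in MCM2-2A#2, against 231, 193, 201 and 246 CPM in WT#1 (0.14 ± 0.09, adjusted p = 0.326). The lines overlapped in both. AmnSINE1, an ancient element counted at a low level, had 24.6, 23.1, 22.9 and 25.8 CPM in MCM2-R#2 and 29.5, 31.0, 27.5 and 28.3 CPM in MCM2-2A#2, against 24.9, 26.8, 24.6 and 24.2 CPM in WT#1 (0.21 ± 0.06, adjusted p = 0.0498). It was the sole member outside the young B1 and B2 subfamilies whose MCM2-2A#2 cultures all lay above WT#1. FAM, the monomer related to B1, was below 1 CPM in every culture and had the lowest log2 fold change (-0.00 ± 0.23, adjusted p = 0.998). PB1D7 had 642, 731, 762 and 788 CPM in MCM2-R#2 and 691, 768, 714 and 886 CPM in MCM2-2A#2, against 983, 824, 781 and 274 CPM in WT#1, where culture 4 lay far below the other 3.

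In the reverted line most SINE subfamilies had fold changes between those of both other lines, and none was called. Over WT#1, the MCM2-R#2 median was 0.06 with 33 of 35 above 0 (70.9% of repeat subfamilies), beside 0.07 over all repeat subfamilies and 0.04 over DNA transposon subfamilies. It ran from 0.00 without WT#1 culture 2 to 0.12 without WT#1 culture 4. edgeR called 0 SINE subfamilies (0% of all repeat subfamilies were called higher and 0% lower), 6 had an unadjusted p below 0.05, all higher, and DESeq2 called 0. The highest log2 fold change was that of B2_Mm2 (0.20 ± 0.07, adjusted p = 0.557) and the lowest that of FAM (-0.23 ± 0.22, adjusted p = 0.923). B2_Mm2 was also the 1 SINE subfamily with every MCM2-R#2 culture above every WT#1 culture (3.87% of repeat subfamilies did so). Against MCM2-2A#2 the MCM2-R#2 median was -0.11, with all 35 below 0 (19% of repeat subfamilies were above 0), beside -0.12 over all repeat subfamilies and -0.12 over DNA transposon subfamilies, and it was -0.03 without MCM2-2A#2 culture 4. edgeR again called 0 (0.796% of repeat subfamilies were called lower), 4 had an unadjusted p below 0.05, all lower, and DESeq2 called 0. At an adjusted p below 0.05 with no fold limit, B1_Mus2 (-0.24 ± 0.05, adjusted p = 0.0153) and AmnSINE1 (-0.27 ± 0.06, adjusted p = 0.0257, the lowest log2 fold change) were lower, beside 2.50% of repeat subfamilies. B1_Mm (-0.20 ± 0.06, adjusted p = 0.0969), B1_Mus1 (-0.18 ± 0.05, adjusted p = 0.0969), B1_Mus2 and AmnSINE1 had every MCM2-R#2 culture below every MCM2-2A#2 culture (8.08% of repeat subfamilies did so), and B1F2 had the log2 fold change nearest to 0 (-0.06 ± 0.10, adjusted p = 0.747). Of 6 primitive endoderm markers 5 were called higher in MCM2-2A#2 than in WT#1 (1.68% of 17098 genes were called higher). Their summed level moved with these lines, with 11.6 to 15.1 CPM in MCM2-R#2 and 32.2 to 45.7 CPM in MCM2-2A#2, against 10.6 to 14.5 CPM in WT#1, none of the 6 was at 0, and their part in the SINE levels was not tested. Of the same 6, 3 were called higher in March MCM2-2A#1 (4.26% of genes), 2 in March MCM2-2A#3 (5.34%) and 1 in the August MCM2-2A clones (0.188%). The SINE medians of those comparisons, given below, differed. Of 5 neural markers, 1 was called lower in MCM2-2A#2 than in WT#1 (1.08% of genes were called lower).

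Most SINE subfamilies had higher counts in each POLE4-KO clone than in WT#1, to a degree that differed between clones. The summed SINE level was 15262, 11801 and 14653 CPM in POLE4-KO#1, 17823, 17667 and 18624 CPM in POLE4-KO#2 and 17332, 14791 and 15794 CPM in POLE4-KO#3, against 12639, 10687 and 12111 CPM in WT#1. POLE4-KO#2 and POLE4-KO#3 lay above WT#1 in every library, and POLE4-KO#1 library 2 fell within the range of WT#1. The median log2 fold change over the 35 subfamilies was 0.40 in POLE4-KO#1, 0.72 in POLE4-KO#2 and 0.44 in POLE4-KO#3, beside 0.33, 0.72 and 0.45 over all repeat subfamilies and 0.41, 0.74 and 0.47 over 160 DNA transposon subfamilies. The 3 contrasts share the WT#1 libraries and are unpaired, since the WT#1 libraries could not be matched by number to those of the knockout clones. Above 0 were 32 of the 35 in POLE4-KO#1, 35 in POLE4-KO#2 and 34 in POLE4-KO#3, beside 83.1%, 96.4% and 94.3% of repeat subfamilies. The limits were passed by 0 SINE subfamilies in POLE4-KO#1 (2.32% of 863 repeat subfamilies were called higher and 0.116% lower), by 26, all higher, in POLE4-KO#2 (51.9% called higher) and by 0 in POLE4-KO#3 (7.88% called higher). At an unadjusted p below 0.05, 26 were higher and 2 lower in POLE4-KO#1 and 31 were higher in POLE4-KO#3, and DESeq2 called 0 in both of these clones. At an adjusted p below 0.05 with no fold limit, 25 were higher (25.5% of repeat subfamilies) and 1 lower (2.09%) in POLE4-KO#1, 31 were higher in POLE4-KO#2 (72.8%) and 31 were higher in POLE4-KO#3 (43.6%). Every library lay above WT#1 in 22 SINE subfamilies of POLE4-KO#1 (29.2% of repeat subfamilies), 32 of POLE4-KO#2 (73.2%) and 32 of POLE4-KO#3 (54%), and below WT#1 in 1 of POLE4-KO#1 (3.59%).

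**Figure D2:**
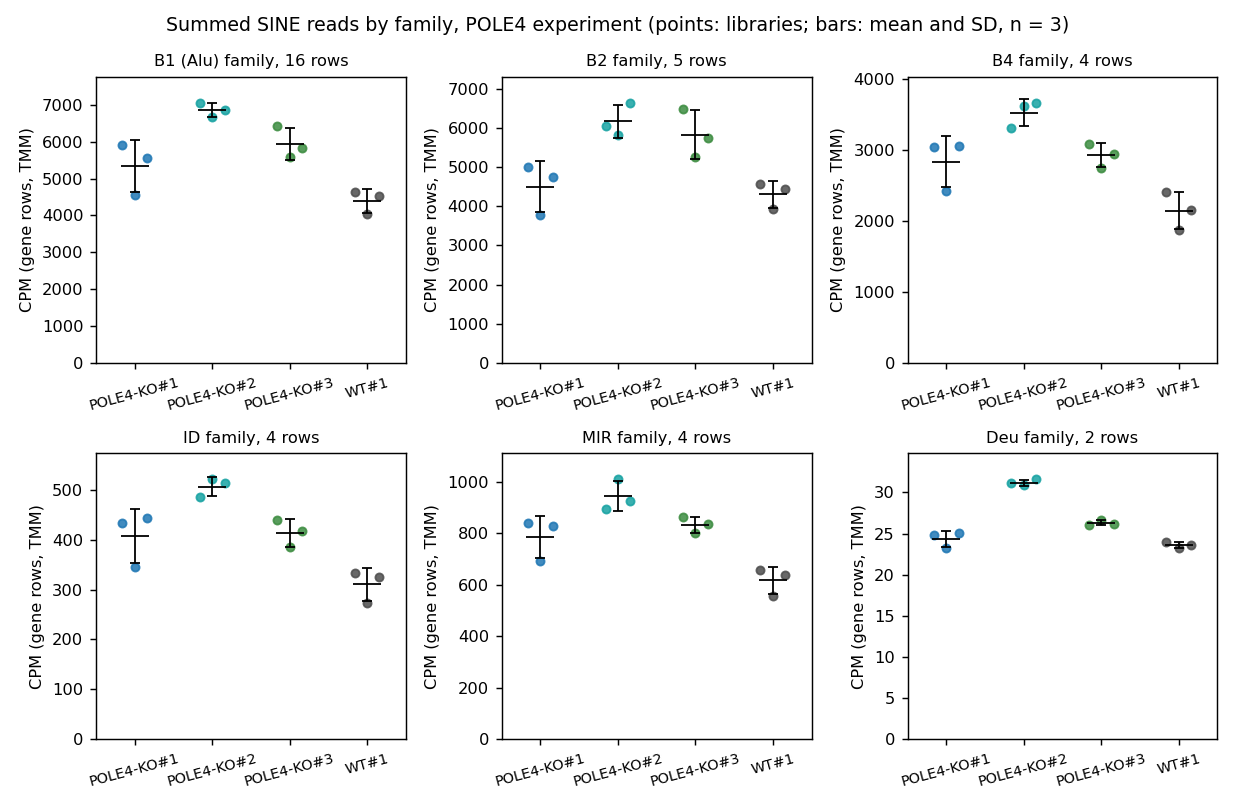
Summed CPM of the SINE families in the POLE4 experiment, 1 panel per family, with 1 point per library (3 per line), horizontal bars at the mean and error bars of 1 SD for POLE4-KO#1, POLE4-KO#2, POLE4-KO#3 and WT#1 (rows in the panel titles are subfamilies). In the B4 panel all POLE4-KO libraries (lowest 2421 CPM) lie above the highest WT#1 library (2404 CPM), and in the B2 panel POLE4-KO#1 (3769.7 to 4997 CPM) overlaps with WT#1 (3926 to 4583 CPM).

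The B4, ID and MIR families lay above WT#1 in nearly all POLE4-KO libraries. B4 had 380.2, 311 and 391.6 CPM in POLE4-KO#1, 427, 471 and 466 CPM in POLE4-KO#2 and 399, 355 and 379.6 CPM in POLE4-KO#3, against 314, 236 and 277 CPM in WT#1. POLE4-KO#2 and POLE4-KO#3 did not overlap with WT#1, and POLE4-KO#1 library 2 fell below the highest WT#1 library (log2 fold change 0.39 ± 0.10, 0.72 ± 0.10 and 0.45 ± 0.10 in the 3 clones, adjusted p = 0.0136, 3.17e-05 and 0.00402). ID_B1 had 1001, 795 and 982 CPM in POLE4-KO#1, 1103, 1192 and 1158 CPM in POLE4-KO#2 and 1014, 901 and 961 CPM in POLE4-KO#3, against 770.1, 615 and 716 CPM in WT#1, and no clone overlapped with WT#1 (0.72 ± 0.10 in POLE4-KO#2, adjusted p = 2.78e-05). B4A had 694, 541 and 699 CPM in POLE4-KO#1, 761, 830.2 and 823 CPM in POLE4-KO#2 and 683, 627 and 672 CPM in POLE4-KO#3, against 535, 429 and 493 CPM in WT#1 (0.73 ± 0.10 in POLE4-KO#2, adjusted p = 2.74e-05). RSINE1, the remaining B4-family member, had 970.0, 774 and 979.8 CPM in POLE4-KO#1, 1016, 1126 and 1216 CPM in POLE4-KO#2 and 992, 865 and 927 CPM in POLE4-KO#3, against 786, 595 and 671 CPM in WT#1 (0.71 ± 0.11 in POLE4-KO#2, adjusted p = 6.50e-05). The 4 members of the B4 family thus had nearly one fold change per clone, between 0.39 and 0.41 in POLE4-KO#1, 0.71 and 0.73 in POLE4-KO#2, and 0.44 and 0.45 in POLE4-KO#3.

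ID, the element related to the BC1 RNA gene, had 47.2, 34.0 and 46.1 CPM in POLE4-KO#1, 50.6, 52.8 and 53.7 CPM in POLE4-KO#2 and 48.2, 41.1 and 42.9 CPM in POLE4-KO#3, against 32.0, 28.1 and 31.7 CPM in WT#1. All 9 knockout libraries lay above WT#1 (0.47 ± 0.11, 0.78 ± 0.11 and 0.53 ± 0.11, adjusted p = 0.00961, 2.86e-05 and 0.00286). ID4_ had 188, 150.1 and 194 CPM in POLE4-KO#1, 218, 225 and 229 CPM in POLE4-KO#2 and 190.2, 165 and 172 CPM in POLE4-KO#3, against 141, 116 and 139 CPM in WT#1 (0.76 ± 0.10 in POLE4-KO#2, adjusted p = 1.48e-05). ID4 and ID2 were also called in POLE4-KO#2, ID4 with 180.4, 204 and 193 CPM in POLE4-KO#2 against 136, 111 and 129 CPM in WT#1 (0.62 ± 0.10, adjusted p = 5.37e-05). ID2 had 35.8, 38.7 and 36.9 CPM in POLE4-KO#2, against 24.7, 17.7 and 24.9 CPM in WT#1 (0.73 ± 0.12, adjusted p = 9.29e-05). None of the ID subfamilies overlapped between POLE4-KO#2 and WT#1.

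MIR had 265, 222 and 273 CPM in POLE4-KO#1, 277, 329 and 307 CPM in POLE4-KO#2 and 274, 251 and 278 CPM in POLE4-KO#3, against 207, 169 and 202 CPM in WT#1 (0.40 ± 0.10, 0.66 ± 0.10 and 0.48 ± 0.10, adjusted p = 0.0106, 3.47e-05 and 0.00271). MIRb had 342, 277 and 321 CPM in POLE4-KO#1, 365, 387 and 347 CPM in POLE4-KO#2 and 351, 321 and 324 CPM in POLE4-KO#3, against 264, 237 and 261 CPM in WT#1. Neither overlapped with WT#1 in any clone, and MIRb stayed below the fold limit in POLE4-KO#2 (0.53 ± 0.08, adjusted p = 5.38e-05). MIRc had 149, 172 and 158 CPM in POLE4-KO#2, against 102, 84.0 and 101 CPM in WT#1 (0.74 ± 0.09, adjusted p = 1.29e-05). MIR3 had 105, 121 and 112 CPM in POLE4-KO#2, against 83.4, 66.7 and 72.3 CPM in WT#1 (0.60 ± 0.09, adjusted p = 4.48e-05). AmnSINE1 had 23.1, 22.2 and 23.2 CPM in POLE4-KO#1, 29.3, 28.6 and 29.7 CPM in POLE4-KO#2 and 24.2, 24.5 and 24.7 CPM in POLE4-KO#3, against 22.5, 21.9 and 21.97 CPM in WT#1. POLE4-KO#2 stood above the other 3 lines in AmnSINE1, and POLE4-KO#3 also lay above WT#1 (0.04 ± 0.07, 0.40 ± 0.07 and 0.14 ± 0.07, adjusted p = 0.652, 0.000175 and 0.113).

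Among the B1 elements 13 of 16 were called in POLE4-KO#2, where 51.9% of repeat subfamilies were called higher. B1_Mus1 had 999.7, 763 and 895 CPM in POLE4-KO#1, 1222, 1104 and 1177 CPM in POLE4-KO#2 and 1249.8, 1002 and 1046 CPM in POLE4-KO#3, against 855, 659 and 778 CPM in WT#1 (0.21 ± 0.11, 0.61 ± 0.11 and 0.53 ± 0.11, adjusted p = 0.172, 0.000254 and 0.00354). B1_Mm had 403, 344 and 357 CPM in POLE4-KO#1, 533, 433 and 506 CPM in POLE4-KO#2 and 556, 427 and 451 CPM in POLE4-KO#3, against 373, 329 and 333 CPM in WT#1 (0.09 ± 0.10, 0.51 ± 0.10 and 0.47 ± 0.10, adjusted p = 0.517, 0.000546 and 0.0039). Both overlapped with WT#1 in POLE4-KO#1 and in no other clone. B1_Mus2 had 747, 533 and 663 CPM in POLE4-KO#1, 962, 832 and 915 CPM in POLE4-KO#2 and 979, 770.5 and 809 CPM in POLE4-KO#3, against 681, 493 and 593 CPM in WT#1 (0.62 ± 0.13 in POLE4-KO#2, adjusted p = 0.000702). It had the highest SINE log2 fold change in POLE4-KO#3 (0.53 ± 0.13, adjusted p = 0.00583). PB1D7 had 415, 211 and 263 CPM in POLE4-KO#1, 629, 312 and 306 CPM in POLE4-KO#2 and 262, 426 and 258 CPM in POLE4-KO#3, against 204, 493 and 394 CPM in WT#1. All 4 lines overlapped, and its log2 fold change in POLE4-KO#3 (-0.21 ± 0.32, adjusted p = 0.596) was the lowest of the SINE subfamilies. FAM had 1.49, 0.843 and 1.45 CPM in POLE4-KO#1, 0.809, 0.63 and 0.858 CPM in POLE4-KO#2 and 0.842, 1.01 and 0.487 CPM in POLE4-KO#3, against 0.689, 0.461 and 0.772 CPM in WT#1, and had the highest log2 fold change in POLE4-KO#1 at this low level (0.99 ± 0.34, adjusted p = 0.0395).

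The older B1 subfamilies moved together in POLE4-KO#2. B1_Mur1 had 407, 448 and 435 CPM in POLE4-KO#2, against 280.0, 228 and 273 CPM in WT#1 (0.72 ± 0.10). B1_Mur2 had 369, 400.3 and 400.3 CPM in POLE4-KO#2, against 247, 202 and 239.5 CPM in WT#1 (0.77 ± 0.10). B1_Mur3 had 282, 301 and 294 CPM in POLE4-KO#2, against 191, 151 and 174 CPM in WT#1 (0.77 ± 0.09). These rodent subfamilies did not overlap between the lines. B1_Mur4 had 425, 454 and 447 CPM in POLE4-KO#2, against 294, 229 and 270.1 CPM in WT#1 (0.74 ± 0.10). B1F had 432, 464 and 445 CPM in POLE4-KO#2, against 298, 250.2 and 288 CPM in WT#1 (0.68 ± 0.09). B1F1 had 194, 210.1 and 205 CPM in POLE4-KO#2, against 128, 107 and 127 CPM in WT#1 (0.75 ± 0.09). B1F1 also had an adjusted p of 0.00497 in POLE4-KO#1, at a log2 fold change of 0.46 ± 0.09 below the fold limit. B1F2 had 159, 178 and 172 CPM in POLE4-KO#2, against 115, 88.3 and 104 CPM in WT#1 (0.72 ± 0.10). The proto-B1 elements PB1, PB1D9, PB1D10 and PB1D11 followed, PB1 with 132, 142 and 144 CPM in POLE4-KO#2 against 88.7, 75.5 and 89.9 CPM in WT#1 (0.72 ± 0.09). PB1D9 had 484, 504 and 525 CPM in POLE4-KO#2, against 333, 271 and 326 CPM in WT#1 (0.70 ± 0.10). Its relatives did the same. PB1D10 had 649, 699 and 705 CPM in POLE4-KO#2, against 437, 364 and 428 CPM in WT#1 (0.74 ± 0.10). PB1D11 had 167, 186 and 175 CPM in POLE4-KO#2, against 111, 91.5 and 113 CPM in WT#1 (0.74 ± 0.10). The adjusted p of these 11 subfamilies ran from 7.46e-06 to 3.11e-05.

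In the B2 family, POLE4-KO#1 lay lower than both other knockout clones in the 3 subfamilies named Mm. B2_Mm1a had 867, 635 and 753 CPM in POLE4-KO#1, 1272, 1000.1 and 1291 CPM in POLE4-KO#2 and 1536, 1211 and 1261 CPM in POLE4-KO#3, against 1109.9, 1026 and 1075 CPM in WT#1. POLE4-KO#1 lay below all other lines, POLE4-KO#2 straddled WT#1 and POLE4-KO#3 lay above it (-0.51 ± 0.12, 0.15 ± 0.12 and 0.32 ± 0.12, adjusted p = 0.0106, 0.264 and 0.0452). B2_Mm1t had 624, 449 and 562 CPM in POLE4-KO#1, 875, 737 and 930.0 CPM in POLE4-KO#2 and 1039, 777 and 856 CPM in POLE4-KO#3, against 699.5, 614 and 672 CPM in WT#1 (-0.28 ± 0.13, 0.36 ± 0.13 and 0.43 ± 0.13, adjusted p = 0.106, 0.0185 and 0.0139). B2_Mm2 had 1284, 920.0 and 1114 CPM in POLE4-KO#1, 1549, 1376 and 1537 CPM in POLE4-KO#2 and 1694, 1306 and 1369.7 CPM in POLE4-KO#3, against 1063, 940.0 and 1080.4 CPM in WT#1 (0.11 ± 0.12, 0.53 ± 0.12 and 0.50 ± 0.12, adjusted p = 0.52, 0.00108 and 0.00515). In B2_Mm1t and B2_Mm2 the POLE4-KO#1 libraries overlapped with WT#1 and lay below those of both other knockout clones, which lay above WT#1. B3 had 1484, 1173 and 1528 CPM in POLE4-KO#1, 1570.2, 1779 and 1896 CPM in POLE4-KO#2 and 1493, 1299 and 1512 CPM in POLE4-KO#3, against 1132, 883 and 1069.7 CPM in WT#1, and none of the clones overlapped with WT#1 (0.44 ± 0.12, 0.77 ± 0.12 and 0.48 ± 0.12, adjusted p = 0.0136, 5.18e-05 and 0.00554). B3A had 738, 592 and 791 CPM in POLE4-KO#1, 791, 930.1 and 985 CPM in POLE4-KO#2 and 736, 660.1 and 761 CPM in POLE4-KO#3, against 578, 463 and 539 CPM in WT#1, with the highest SINE log2 fold change in POLE4-KO#2 (0.78 ± 0.11, adjusted p = 4.09e-05).

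The difference in B2 between knockout clones was itself tested. POLE4-KO#1 was lower than POLE4-KO#2 in B2_Mm1a (-0.66 ± 0.12, adjusted p = 0.00135) and B2_Mm1t (-0.64 ± 0.13, adjusted p = 0.00228), the 2 SINE subfamilies called in this comparison (6.95% of repeat subfamilies were called lower). It was lower than POLE4-KO#3 in the same pair, B2_Mm1a (-0.83 ± 0.12, adjusted p = 0.00026) and B2_Mm1t (-0.71 ± 0.13, adjusted p = 0.00143), again the 2 called (2.90% of repeat subfamilies were called lower). At an adjusted p below 0.05 with no fold limit, 32 of the 35 SINE subfamilies, of every family, were lower in POLE4-KO#1 than in POLE4-KO#2 (38.1% of repeat subfamilies), among them B1_Mm (-0.41 ± 0.10, adjusted p = 0.00875), B4 (-0.33 ± 0.10, adjusted p = 0.0205), B3 (-0.33 ± 0.12, adjusted p = 0.0383) and MIR (-0.26 ± 0.10, adjusted p = 0.0392), and 3, B1_Mm, B2_Mm1a and B2_Mm1t, were lower than in POLE4-KO#3 (5.45%). With libraries scaled to DNA transposon counts the pair was no longer called against POLE4-KO#2 (-0.40 for B2_Mm1a and -0.37 for B2_Mm1t, adjusted p = 0.213 and 0.215) and still was against POLE4-KO#3 (-0.76 and -0.64, adjusted p = 0.00204 and 0.00669). Over all SINE subfamilies the median was -0.32 for POLE4-KO#1 over POLE4-KO#2 and -0.04 for POLE4-KO#1 over POLE4-KO#3, beside -0.39 and -0.10 over all repeat subfamilies. Without POLE4-KO#1 library 2 the second median was 0.07, and it was -0.10 without library 3 of that clone. FAM had the highest log2 fold change in both (0.71 ± 0.32, adjusted p = 0.0924, over POLE4-KO#2 and 0.71 ± 0.33, adjusted p = 0.237, over POLE4-KO#3). POLE4-KO#2 over POLE4-KO#3 had a median of 0.26 and 0 called (edgeR; 1.16% of repeat subfamilies were called higher), 23 with an unadjusted p below 0.05 and 4 with an adjusted p below 0.05 (8.11% of repeat subfamilies), all higher, and 0 called by DESeq2. The log2 fold changes there ran from B2_Mm1a (-0.17 ± 0.12, adjusted p = 0.346) to PB1D7 (0.40 ± 0.32, adjusted p = 0.41). Without POLE4-KO#1 library 2 the pair was no longer called against POLE4-KO#2 (-0.55 for B2_Mm1a and -0.52 for B2_Mm1t, adjusted p = 0.00979 and 0.014) and B2_Mm1t no longer against POLE4-KO#3 (-0.57, adjusted p = 0.0115). B2_Mm1t was also lost against POLE4-KO#2 without library 3 of that clone (-0.56, adjusted p = 0.0107) and against POLE4-KO#3 without library 1 of that clone (-0.58, adjusted p = 0.0124).

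The ratio of B2_Mm1a to B3 counts, which does not depend on library scaling, was 0.584, 0.542 and 0.4929 in POLE4-KO#1, 0.81, 0.562 and 0.681 in POLE4-KO#2 and 1.03, 0.933 and 0.834 in POLE4-KO#3, against 0.98, 1.16 and 1.01 in WT#1. POLE4-KO#1 and POLE4-KO#2 lay below every WT#1 library, and POLE4-KO#3 overlapped with WT#1. This ratio was chosen after the values had been seen and is a description.

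Averaged over the 3 knockout clones, the SINE median was 0.51 over WT#1, with 33 of 35 above 0 (96.5% of repeat subfamilies), beside 0.51 over all repeat subfamilies and 0.52 over DNA transposon subfamilies. At an adjusted p below 0.05, 30 were higher (59.7% of repeat subfamilies), and the limits were passed by ID alone (0.59 ± 0.09, adjusted p = 0.000156; 19.1% of repeat subfamilies were called higher). The lowest log2 fold change was that of PB1D7 (-0.11 ± 0.26, adjusted p = 0.723), and that of B2_Mm1a was -0.01 ± 0.10 (adjusted p = 0.906). Most fold changes lay just under the fold limit, and the count of calls moved from 1 to 16 without WT#1 library 6, to 6 without WT#1 library 8, to 9 without POLE4-KO#1 library 2, to 3 without POLE4-KO#2 library 1 or POLE4-KO#3 library 2, and to 0 without WT#1 library 7, POLE4-KO#1 library 1 or 3 or POLE4-KO#3 library 1.

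**Figure D3:**
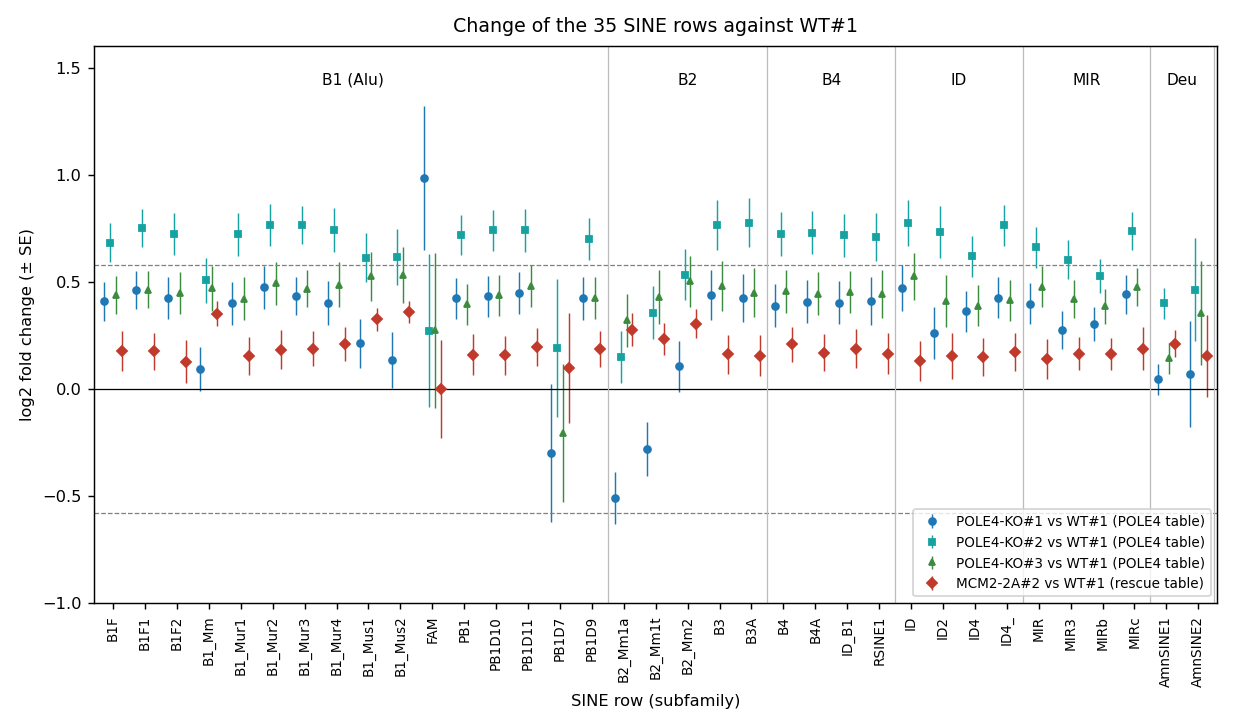
Log2 fold change over WT#1 of each of the 35 SINE subfamilies, with bars of 1 standard error, in POLE4-KO#1, POLE4-KO#2, POLE4-KO#3 and MCM2-2A#2, grouped by family; dashed lines mark the fold limit of 0.58 in each direction. B2_Mm1a lies at -0.51 in POLE4-KO#1 and 0.32 in POLE4-KO#3, while B4, B4A, ID_B1 and RSINE1 lie side by side in each POLE4-KO clone (0.71 to 0.73 in POLE4-KO#2).

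Fibroblast markers separated POLE4-KO#1 and POLE4-KO#2 from WT#1 and POLE4-KO#3. The summed level of 6 markers was 1.38 to 2.42 CPM in POLE4-KO#1, 5.17 to 7.08 CPM in POLE4-KO#2 and 60.7 to 75.2 CPM in POLE4-KO#3, against 70.2 to 73.1 CPM in WT#1. Of the 3 markers that passed the filter, all collagen genes, 3 were called lower in POLE4-KO#1 and in POLE4-KO#2 and 0 in POLE4-KO#3 (7.93%, 6.95% and 0.433% of all genes were called lower in the 3 clones). Lum was at 0 in all POLE4-KO#1 libraries. In bulk RNA, fewer cells of a type and less RNA per cell cannot be told apart, and the part of these cells in the SINE levels was not tested. The summed markers of POLE4-KO#3 overlapped with those of WT#1.

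The SINE level was then read as a gauge of intronic or genomic background, beside sets of counts from sequence that lies mostly in introns or between genes: 197 DNA transposon subfamilies, 4 L2 subfamilies, 327 genes annotated as sense intronic and 3214 genes of the annotation class TEC, which lacks experimental evidence. DNA transposons had 1151, 956 and 1204 CPM in POLE4-KO#1, 1201, 1417 and 1334 CPM in POLE4-KO#2 and 1159, 1043 and 1152 CPM in POLE4-KO#3, against 881, 782 and 904 CPM in WT#1. Sense intronic genes had 86.0, 71.0 and 93.4 CPM in POLE4-KO#1, 89.5, 108 and 97.9 CPM in POLE4-KO#2 and 81.0, 77.9 and 82.5 CPM in POLE4-KO#3, against 65.9, 52.7 and 60.8 CPM in WT#1. Every knockout library lay above every WT#1 library in both sets, and also in the L2 and TEC sets. In the rescue experiment the sets overlapped, DNA transposons with 1004, 911, 887 and 954 CPM in MCM2-R#2 and 973, 896, 945 and 1166 CPM in MCM2-2A#2, against 964, 789, 865 and 1055 CPM in WT#1. Whether the SINE counts came from intronic or genomic sequence was not tested.

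Scaling the libraries to DNA transposon counts in place of genes brought the SINE medians near 0. It shifted all log2 fold changes by -0.42 in POLE4-KO#1, -0.70 in POLE4-KO#2, -0.49 in POLE4-KO#3 and -0.15 in MCM2-2A#2. The SINE median was then -0.02 in POLE4-KO#1 with 13 of 35 above 0, 0.02 in POLE4-KO#2 with 20 above 0, -0.04 in POLE4-KO#3 with 6 above 0, and 0.02 in MCM2-2A#2 with 27 above 0, against 32, 35, 34 and 34 above 0 under gene scaling. The 26 calls of POLE4-KO#2 fell to 0, and POLE4-KO#1 gained 2 calls, both lower. These 2 were among the 6 subfamilies named Mm or Mus (B1_Mm, B1_Mus1, B1_Mus2, B2_Mm1a, B2_Mm1t and B2_Mm2), whose median under this scaling was -0.32 in POLE4-KO#1, -0.17 in POLE4-KO#2, -0.01 in POLE4-KO#3 and 0.16 in MCM2-2A#2, beside -0.01, 0.03, -0.05 and 0.01 for the other 29. This grouping by name was made after the values had been seen and was not tested.

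**Figure D4:**
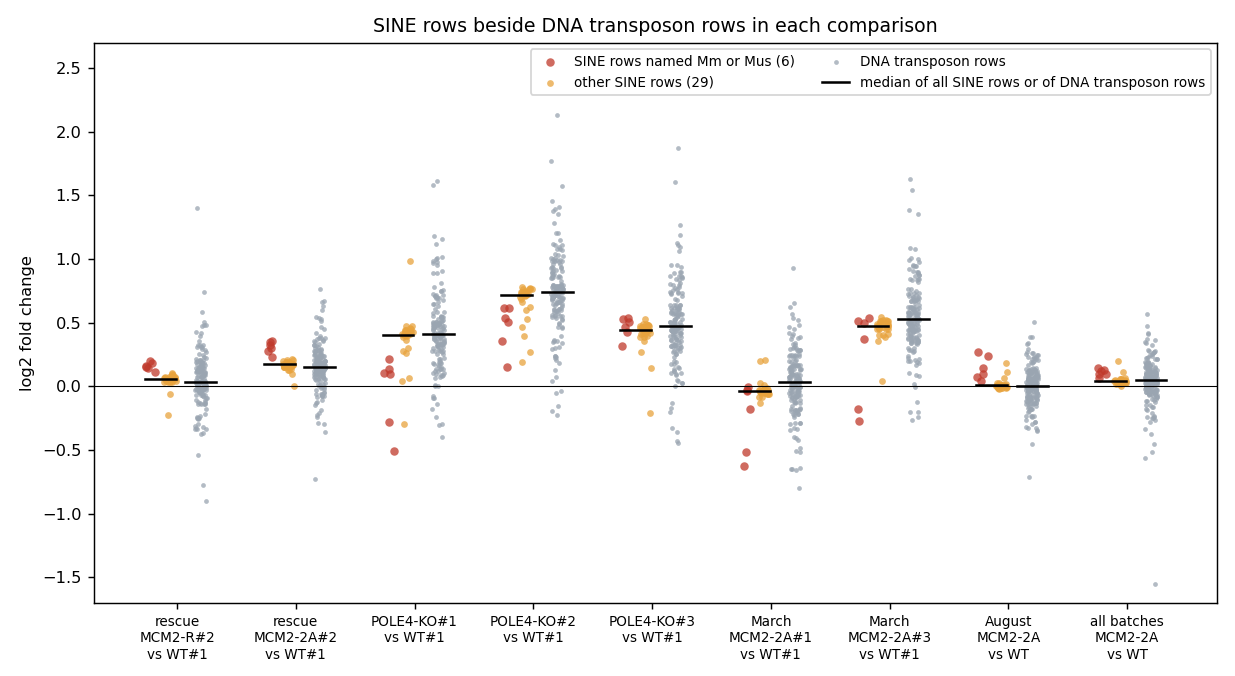
Log2 fold changes under gene scaling of the 6 SINE subfamilies named Mm or Mus (red), the other 29 SINE subfamilies (orange) and the DNA transposon subfamilies (grey) in 9 comparisons, with black bars at the median of all SINE subfamilies and at that of the DNA transposon subfamilies (rows in the legend are subfamilies). In POLE4-KO#2 the median of the 29 orange points is 0.72 beside 0.74 for the grey ones, and the median of the 6 red points is 0.31 beside 0.15 for the grey ones in MCM2-2A#2 and 0.10 beside 0.41 in POLE4-KO#1.

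The 29 other SINE subfamilies kept a nearly constant ratio to DNA transposon counts. It was 8.69 ± 0.252 in POLE4-KO#1, 9.10 ± 0.458 in POLE4-KO#2 and 8.82 ± 0.123 in POLE4-KO#3, against 8.59 ± 0.282 in WT#1 (s.d., n = 3 libraries each). In the rescue experiment it was 10.9 ± 0.359 in MCM2-R#2 and 11.1 ± 0.161 in MCM2-2A#2, against 10.8 ± 0.485 in WT#1 (s.d., n = 4 cultures each), and over the 17 units of the clone experiment it stayed between 8.52 and 9.12. The 6 Mm or Mus subfamilies ran over a wider range, from 3.61 to 6.09 per DNA transposon count in the POLE4 libraries, from 3.62 to 5.52 in the August clones and from 10.8 to 16.8 in the rescue cultures. The lowest rescue value was that of WT#1 culture 4, which came from technical run 2 alone, and runs were not balanced over the rescue lines. The rescue libraries were made with another kit generation, and ratios are not compared between the tables.

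Across the independent clones the MCM2-2A and WT genotypes did not part in any SINE subfamily. In the August batch, 5 MCM2-2A and 7 WT clones, the summed SINE level had a lowest, median and highest value of 13240.0, 16394 and 17486 CPM in MCM2-2A clones, against 13908, 15328 and 17952 CPM in WT clones. B2_Mm1a had 1016, 1236 and 1495 CPM in MCM2-2A clones, against 669, 1162 and 1209.8 CPM in WT clones. B2_Mm1t had 677, 843 and 1013 CPM in MCM2-2A clones, against 491, 777 and 855 CPM in WT clones. The genotypes overlapped in all 3. The lowest and highest summed SINE levels among WT clones were those of WT#6 and WT#8. Mcm2 had 213 CPM in WT#6 and 222 CPM in WT#8, within the 186 to 262 CPM of MCM2-2A clones. The other WT clones had 288 to 402 CPM of Mcm2, and its part in the SINE levels was not tested. The SINE median was 0.01 with 25 of 35 above 0 (64.4% of repeat subfamilies), beside 0.04 over all repeat subfamilies and 0.01 over 175 DNA transposon subfamilies, and it ran from -0.01 without MCM2-2A#6 to 0.07 without MCM2-2A#8. edgeR called 0 SINE subfamilies (0.204% of 979 repeat subfamilies were called higher), 0 had an unadjusted p below 0.05, and DESeq2 called 0. B2_Mm1a had the highest log2 fold change (0.27 ± 0.14, adjusted p = 0.603), followed by B2_Mm1t (0.24 ± 0.13, adjusted p = 0.635), and ID the lowest (-0.02 ± 0.07, adjusted p = 0.994). B1_Mm had 346, 426 and 460.0 CPM in MCM2-2A clones, against 335, 402 and 471 CPM in WT clones (0.10 ± 0.08, adjusted p = 0.876). MIR had 220.4, 279.7 and 284 CPM in MCM2-2A clones, against 254, 261 and 302 CPM in WT clones (0.01 ± 0.07, adjusted p = 0.994), and B4 had 323, 401 and 412 CPM in MCM2-2A clones, against 365, 379 and 447 CPM in WT clones (-0.00 ± 0.07, adjusted p = 0.994). These 3 also overlapped.

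With the March and January libraries added and the batch as a covariate, the median was 0.04 (-0.00 without March MCM2-2A#3 and 0.09 without August MCM2-2A#8) with all 35 above 0 (78.1% of repeat subfamilies), edgeR called 0 (0.394% of repeat subfamilies were called higher), 0 had an unadjusted p below 0.05, and DESeq2 called 0. AmnSINE1 had the highest log2 fold change (0.20 ± 0.10, adjusted p = 0.649) and ID the lowest (0.00 ± 0.11, adjusted p = 0.999). B2_Mm1a had a log2 fold change of 0.15 ± 0.13 (adjusted p = 0.883). The January libraries used were of MCM2-2A clones alone, so with the batch covariate they did not inform the difference between genotypes. WT#1 and MCM2-2A#1 each entered from 2 batches as separate units, which the p values treat as independent.

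The March batch held 3 libraries each of MCM2-2A#1, MCM2-2A#3 and WT#1. The summed SINE level was 8077, 11186 and 13534 CPM in MCM2-2A#1 and 12435, 15347 and 18225 CPM in MCM2-2A#3, against 9731, 13771 and 13951 CPM in WT#1. The libraries within a line differed widely and all 3 lines overlapped. The MCM2-2A#1 median was -0.04 with 4 of 35 above 0 (55.9% of repeat subfamilies), edgeR called 0 (0.971% of 927 repeat subfamilies were called higher), 0 had an unadjusted p below 0.05, and DESeq2 called 0. The median was 0.12 without MCM2-2A#1 library 4, 0.07 without WT#1 library 2 and -0.15 without MCM2-2A#1 library 5. There B2_Mm1t was lowest (-0.62 ± 0.33, adjusted p = 0.849) and FAM highest (0.21 ± 0.30, adjusted p = 0.996).

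The MCM2-2A#3 median was 0.48 with 33 of 35 above 0 (96.9% of repeat subfamilies), beside 0.60 over all repeat subfamilies and 0.53 over 170 DNA transposon subfamilies. edgeR called 0 (17.2% of repeat subfamilies were called higher), 30 had an unadjusted p below 0.05 and 28 an adjusted p below 0.05, all higher (57.6% of repeat subfamilies), and DESeq2 called 0. Without MCM2-2A#3 library 1 the count of calls was 24, and without its library 3 the median was 0.30. B4 had 174, 261 and 257 CPM in MCM2-2A#1 and 266, 319 and 404 CPM in MCM2-2A#3, against 196, 273 and 235 CPM in WT#1 (0.49 ± 0.17 for MCM2-2A#3, adjusted p = 0.0322). B1_Mm had 183, 246 and 269 CPM in MCM2-2A#1 and 268, 336 and 409.96 CPM in MCM2-2A#3, against 184, 273 and 255 CPM in WT#1 (0.51 ± 0.18, adjusted p = 0.0304). Library 1 of MCM2-2A#3 fell within the range of WT#1 in both, while each MCM2-2A#3 library lay above the WT#1 library of the same number in both. B2_Mm1a had 1056, 1216 and 2478 CPM in MCM2-2A#1 and 1636, 2256 and 2101 CPM in MCM2-2A#3, against 1597, 2294 and 2895 CPM in WT#1 (-0.18 ± 0.28, adjusted p = 0.557). B2_Mm1t had the lowest log2 fold change (-0.27 ± 0.32, adjusted p = 0.442) and ID2 the highest (0.54 ± 0.17, adjusted p = 0.0219). AmnSINE1, with 21.5, 19.9 and 22.5 CPM in MCM2-2A#3 against 15.8, 14.7 and 17.7 CPM in WT#1, had the lowest adjusted p (0.41 ± 0.10, adjusted p = 0.00742) and was 1 of 11 SINE subfamilies without overlap (59.8% of repeat subfamilies lay above WT#1 in every library). Sense intronic genes had 125, 143 and 163 CPM in MCM2-2A#3, against 81.3, 106 and 92.2 CPM in WT#1, and the 6 fibroblast markers summed to 3.32 to 3.49 CPM in MCM2-2A#3, against 40.4 to 62.9 CPM in WT#1. Neither set overlapped, and their part in the SINE levels was not tested.

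Within the August batch, the SINE level of a clone correlated with 5 of 10 gauges. Over the 12 clones, the summed SINE CPM correlated with sense intronic genes (Pearson's r = 0.89, adjusted permutation p = 0.0004; Spearman's rho = 0.88, adjusted p = 0.0042), DNA transposons (r = 0.86, adjusted p = 0.0005; rho = 0.83, adjusted p = 0.00513), L2 (r = 0.81, adjusted p = 0.00437; rho = 0.83, adjusted p = 0.00513), TEC genes (r = 0.78, adjusted p = 0.00595; rho = 0.80, adjusted p = 0.00757) and LTR subfamilies (r = 0.69, adjusted p = 0.0271; rho = 0.62, adjusted p = 0.071). Of 10 gauges compared, L1 (r = -0.17), mitochondrial genes (r = 0.44), Malat1 (r = 0.01), Gm26917 (r = 0.21) and ribosomal protein genes (r = 0.06) did not pass an adjusted p of 0.05. Each p came from 100000 permutations. Gm26917 alone had 148268 to 175558 CPM in these clones, and it is part of the gene total used for scaling. The relations rest in part on the clones at the ends. Without the 2 clones farthest from the median of each gauge, which were MCM2-2A#8 and WT#8 for DNA transposons and L2 and MCM2-2A#8 and WT#6 for sense intronic genes, TEC and LTR, r was 0.77 for sense intronic genes and 0.73 for DNA transposons (adjusted permutation p = 0.0828 for both) and 0.54, 0.48 and 0.33 for L2, TEC and LTR (adjusted p = 0.351, 0.391 and 0.579). Within the 7 WT clones r was 0.80 for sense intronic genes and 0.79 for DNA transposons, where rho was 0.14 (adjusted exact permutation p of r = 0.188 for both), and the 5 MCM2-2A clones were too few for a value. All clones share the batch and the scaling, and each repeat count is a share of the same library.

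Each August clone had 2 libraries, and the SINE level was higher in the higher numbered one in 12 of 12 clones, by 0.22 to 0.60 on the log2 scale (median 0.42). DNA transposons (median 0.41), L2 (0.46), sense intronic genes (0.27), TEC genes (0.26) and Malat1 (0.46) were also higher in 12 of 12, mitochondrial genes in 11 (0.31), L1 in 10 (0.16), LTR in 9 (0.13), Gm26917 in 9 (0.08) and ribosomal protein genes in 6 (median 0.01). The 29 other SINE subfamilies (0.43) and the 6 Mm or Mus subfamilies (0.35) both did so in 12 of 12. With the lower numbered libraries alone, the SINE median of MCM2-2A over WT was 0.11 and with the higher numbered ones -0.13, with 0 calls in either. The 2 libraries of a clone were summed as counts, so the deeper one weighed more in the clone levels and correlations above. The lower and higher numbered libraries held 28655189 and 67467849 counts in MCM2-2A#6, and 51904648 and 30376288 counts in WT#3. The part of this mix in the clone levels and correlations was not tested. What the library number stands for is not given in the sources used here, and these values were computed after the data had been seen.

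**Figure D5:**
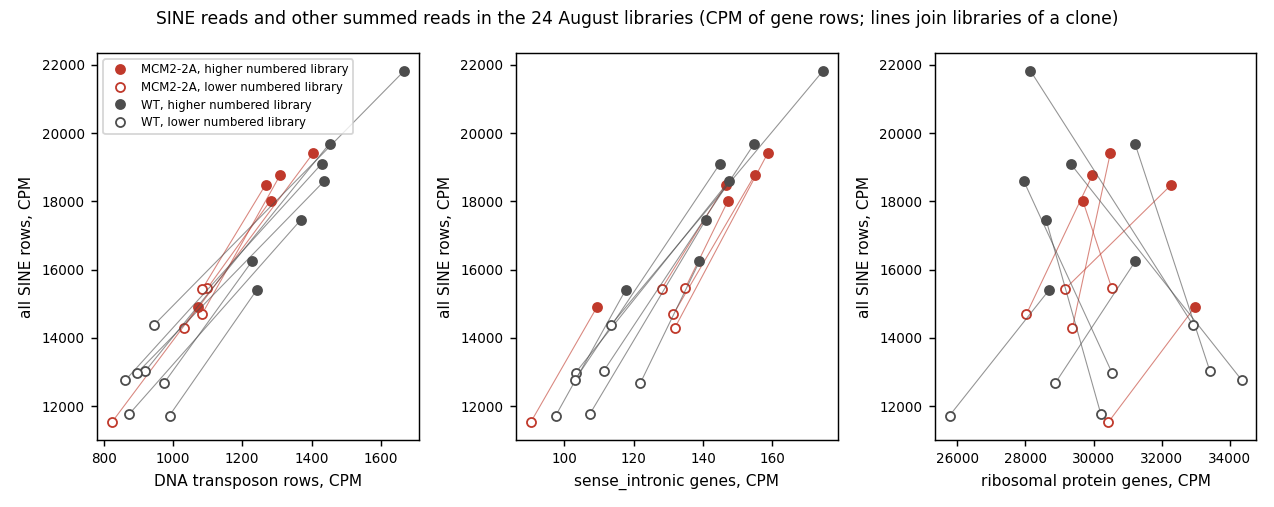
Summed SINE CPM (vertical axis) against the summed CPM of DNA transposon subfamilies, sense intronic genes and ribosomal protein genes in the 24 August libraries, filled for the higher and open for the lower numbered library of a clone, with lines joining the 2 libraries of a clone, in red for MCM2-2A and grey for WT clones. In the DNA transposon and sense intronic panels the lines run up and to the right in 12 of 12 clones, and in the ribosomal protein panel 6 of 12 run to the right.

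Genes of the RNA polymerase III machinery were listed beside the share of calls over all genes, which lists this small cannot be told apart from. Of 13 polymerase III subunits, 0 were called in MCM2-2A#2 (1.68% of 17098 genes were called higher and 1.08% lower), with a median log2 fold change of -0.02 beside -0.01 over all genes, and 1 was called in POLE4-KO#1 (3.62% of 16864 genes were called higher). That was Polr3gl, which encodes an alternative form of a polymerase III subunit, with 6.503 ± 0.333 CPM in POLE4-KO#1 against 2.71 ± 0.385 CPM in WT#1 (s.d., n = 3 each; 1.27 ± 0.16, adjusted p = 1.73e-05). None of the subunits was called in POLE4-KO#2 or POLE4-KO#3, where the list medians were -0.06 and -0.07. Of 18 initiation factors and regulators, 0 were called in MCM2-2A#2 and 1 in POLE4-KO#2, Snapc5, a subunit of the small nuclear RNA activating complex (13.8 ± 0.382 CPM in POLE4-KO#2 against 8.06 ± 1.00 CPM in WT#1, 0.77 ± 0.12, adjusted p = 0.000213; 4.56% of genes were called higher). By edgeR, 0 of 13 chromatin factors reported at SINEs were called in any comparison with WT. Over these comparisons, 0.0292% to 5.34% of genes were called higher and 0.00482% to 7.93% lower. In the August clones 0 of the subunits or factors were called, beside 0.188% of genes called higher and 0.00482% lower.

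Of 10 RNAs made by polymerase III, those called against WT#1 were lower. Bc1, the RNA whose gene is related to ID elements, had 23.3 ± 6.29 CPM in POLE4-KO#1 against 46.2 ± 13.2 CPM in WT#1 (s.d., n = 3 each; -0.99 ± 0.25, adjusted p = 0.00745), and was lower there while the ID subfamily lay above WT#1. It had a log2 fold change of -0.50 ± 0.15 in MCM2-2A#2 (adjusted p = 0.0345), -0.10 ± 0.24 in POLE4-KO#2 (adjusted p = 0.781) and -0.25 ± 0.25 in POLE4-KO#3 (adjusted p = 0.542), none of which passed the limits. Rpph1, the RNA of ribonuclease P, had 2009.7 ± 143 CPM in POLE4-KO#2 against 3183 ± 176 CPM in WT#1 (-0.66 ± 0.10, adjusted p = 7.93e-05; 6.95% of genes were called lower). It also was lower in MCM2-2A#3 of the March batch (-1.21 ± 0.31, adjusted p = 0.00964; 7.53% of genes were called lower). Rn7sk, the 7SK RNA, had log2 fold changes of -0.00 ± 0.13, 0.21 ± 0.13 and -0.22 ± 0.13 in POLE4-KO#1, POLE4-KO#2 and POLE4-KO#3 and passed the limits in none. The 7SL copies Rn7s1 and Rn7s2 are nearly identical and were left aside as uncertain.

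Of 8 long RNAs kept in the nucleus, Kcnq1ot1, an unspliced antisense RNA, was higher in POLE4-KO#2 (68.8 ± 9.30 CPM against 32.0 ± 3.99 CPM in WT#1, s.d., n = 3 each; 1.11 ± 0.13, adjusted p = 7.33e-06) and in POLE4-KO#3 (56.6 ± 3.02 CPM, 0.82 ± 0.13, adjusted p = 0.000537), and was not called in POLE4-KO#1 (0.31 ± 0.13, adjusted p = 0.0758). In POLE4-KO#3 Meg3 was higher (0.65 ± 0.15, adjusted p = 0.00893; 2.56% of genes were called higher) and Firre lower (-0.82 ± 0.16, adjusted p = 0.00362). The list median was 0.29 in POLE4-KO#1, 0.45 in POLE4-KO#2 and 0.29 in POLE4-KO#3, beside 0.00, -0.03 and -0.00 over all genes, and -0.02 in MCM2-2A#2, where 0 were called. Of 8 signal recognition particle proteins, whose RNA partner is the ancestor of B1, Srp54c (0.66 ± 0.11, adjusted p = 0.000918) and Srp54a (0.68 ± 0.11, adjusted p = 0.00108) were higher in POLE4-KO#3, where 2.56% of genes were called higher, and 0 were called in MCM2-2A#2, POLE4-KO#1 or POLE4-KO#2. In MCM2-2A#3 of the March batch Srp54b (-0.67 ± 0.06, adjusted p = 9.33e-06) and Srp54a (-0.58 ± 0.06, adjusted p = 2.11e-05) were lower, where 7.53% of genes were called lower. The Srp54 genes are near-identical copies and single values are uncertain.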

How the data were processed

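Total RNA (column purification with DNase) was sequenced paired-end from stranded libraries, with another kit generation for the rescue experiment. The values deposited by the authors are unnormalised read counts for genes and repeat subfamilies. The submitters' processing notes name Trimmomatic 0.39, STAR 2.7.1a, featureCounts, DESeq2 and the mm10 build. How multiply mapped reads and strand were handled is not given in the sources used here. Of 68 count columns 65 were used. The other 3 carry a line number of no sample, and 3 samples of WT#5 were not analysed here. Runs of 1 rescue culture were summed, as were the libraries of a clone within a batch of the clone experiment, except March, where libraries entered singly.

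Counts were filtered with filterByExpr (minimum count 10, minimum total 15), scaled by the TMM of gene rows, and tested with the quasi-likelihood test of edgeR 4.0.16 in R 4.3.3, with Benjamini-Hochberg adjustment over all repeat subfamilies tested and over genes separately. The code was tested on simulated data. Alternatives were DESeq2 1.42.0, its size factors, no TMM, TMM from DNA transposon rows, no filter, a looser limit, each replicate left out and a replicate block. Gene symbols came from GENCODE vM21 (55154 of 55335 genes). Correlations used scipy 1.17.1. The members and lists were chosen with earlier results of these data known. Named subfamilies were the leading one of each family, a set of common ones (B1_Mm, the B2 subfamilies, B3, B4, B4A, MIR, MIRb and ID_B1), every called one, and the highest and lowest fold change in each comparison. Named genes were list members called or with the largest change.

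Replicate numbers were checked for pairing by correlating deviations from line means. All 9 same-numbered pairs of POLE4-KO libraries were above 0.1 (0.29 to 0.57), as were the 3 pairs of March MCM2-2A#3 and WT#1 (0.30 to 0.37), and these numbers were taken to pair the libraries. In the rescue experiment 5 of 12 pairs were above 0.1, so cultures were taken as unpaired. The count columns of WT#1 in the POLE4 experiment are numbered 6 to 8, while its sample titles carry the same numbers as the knockout libraries. Which column belongs to which title is not given, so pairing of WT#1 with the knockout libraries was not checked.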

Additional observations from a re-analysis of the deposited data

Results flagged for a closer look

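Of 86 groups of 4 to 10 samples examined, 14 held a sample far from the others. Chance gives about 1 in 20 for independent groups. The groups here are not independent, since family sums move together and several flags fall on the same sample. The 14 were therefore not tested against that rate. In the rescue experiment, WT#1 culture 2 stood high in B2_Mm1a at 4760 CPM (others 4092 to 4147) and in B2_Mm1t at 2891 CPM (others 2573 to 2616). WT#1 culture 3 stood low in B2_Mm2 at 2118 CPM (others 2193 to 2206). MCM2-2A#2 culture 1 stood high in FAM at 0.886 CPM (others 0.701 to 0.724), and MCM2-2A#2 culture 4 in the sum of the Alu family at 7835 CPM (others 6797 to 6973).

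In the August batch MCM2-2A#8 lay below the other MCM2-2A clones in the sums of the Alu family (4890.3 CPM, others 5929.5 to 6304), the B4 family (2486 CPM, others 3042 to 3217), the ID family (363 CPM, others 444 to 463), the MIR family (676 CPM, others 823 to 854) and all SINEs (13240.0 CPM, others 16306 to 17486). WT#8 lay above the other WT clones in the sums of the Alu family (6738 CPM, others 5353 to 5791), the B4 family (3467 CPM, others 2839 to 3016), the ID family (511 CPM, others 417 to 434) and the MIR family (914 CPM, others 763 to 806).

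The POLE4-KO clones differed in 2 B2 subfamilies by a test of the difference itself: POLE4-KO#1 over POLE4-KO#2 had a log2 fold change of -0.66 in B2_Mm1a and -0.64 in B2_Mm1t, which were not called with DNA transposon scaling (-0.40 and -0.37), and POLE4-KO#1 over POLE4-KO#3 of -0.83 in B2_Mm1a and -0.71 in B2_Mm1t.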

How the results depend on the processing

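Counts of SINE calls and SINE medians were recomputed under every alternative. Counts stayed within 1.5 times their value in 211 of 245 cases and medians moved by less than the replicate spread in 237. A count of 0 in both fits was taken as unchanged, which holds for many of these cases. In the mean of the POLE4-KO clones the count stayed in that range in 3 of 12 fits with 1 library left out. With an adjusted p below 0.05 and no fold limit, 6 SINE subfamilies passed in MCM2-2A#2, 2 in MCM2-R#2 over MCM2-2A#2, 30 in the mean of the POLE4-KO clones, 26 in POLE4-KO#1, 31 in POLE4-KO#3, 32 in POLE4-KO#1 over POLE4-KO#2, 3 in POLE4-KO#1 over POLE4-KO#3, 4 in POLE4-KO#2 over POLE4-KO#3 and 28 in March MCM2-2A#3. The mean of the POLE4-KO clones had 2 calls with DESeq2 or its size factors and 0 without TMM or with DNA transposon scaling. POLE4-KO#1 had 1 call without TMM and 2 with DNA transposon scaling, which left 0 in POLE4-KO#2 and 0 in POLE4-KO#1 over POLE4-KO#2, and March MCM2-2A#1 had 1 call without a filter. With that scaling the SINE median was -0.0205 in the mean of the POLE4-KO clones, -0.0186 in POLE4-KO#1, 0.0203 in POLE4-KO#2, -0.0416 in POLE4-KO#3, -0.0481 in POLE4-KO#1 over POLE4-KO#2, 0.0479 in POLE4-KO#2 over POLE4-KO#3 and -0.0436 in March MCM2-2A#3. In POLE4-KO#2 it turned the fold changes of B1F (-0.014), B1_Mus1 (-0.0746), B1_Mus2 (-0.0677), ID4 (-0.0791), MIR3 (-0.0988) and MIR (-0.0395) below 0. The August median was -0.13 with higher numbered libraries alone. Leaving out 1 library at a time gave 0 to 16 calls in the mean of the POLE4-KO clones, 0 to 2 in POLE4-KO#1, 21 to 26 in POLE4-KO#2, 0 to 2 in POLE4-KO#3, 0 to 3 in POLE4-KO#1 over POLE4-KO#2, 1 to 2 in POLE4-KO#1 over POLE4-KO#3 and 0 to 24 in March MCM2-2A#3. The SINE medians then ran from 0.00 to 0.12 in MCM2-R#2, -0.15 to -0.03 in MCM2-R#2 over MCM2-2A#2, 0.08 to 0.23 in MCM2-2A#2, 0.30 to 0.59 in March MCM2-2A#3, -0.15 to 0.12 in March MCM2-2A#1, -0.01 to 0.07 in the August clones and -0.00 to 0.09 with all batches. The 2 calls in POLE4-KO#1 came without its library 2, and the 2 in POLE4-KO#3 without WT#1 library 6 or POLE4-KO#3 library 2. With the replicate block the calls were 0 in MCM2-2A#2 (median 0.17) and 0 in March MCM2-2A#3 (0.47). Between knockout clones they were 2 in POLE4-KO#1 over POLE4-KO#2 (-0.34), 2 in POLE4-KO#1 over POLE4-KO#3 (-0.03) and 0 in POLE4-KO#2 over POLE4-KO#3 (0.28). The pairing thus changed no SINE call in these comparisons. Contrasts of POLE4-KO clones with WT#1 were not refitted with a block. Without TMM the August correlations were 0.88 for DNA transposons and 0.91 for sense intronic genes. Within the 7 WT clones they were 0.79 for DNA transposons, 0.75 for L2, 0.49 for LTR, 0.80 for sense intronic genes and 0.69 for TEC genes, and without the 2 farthest clones 0.73, 0.54, 0.33, 0.77 and 0.48. The cause of these changes was not tested. FAM, below 1 CPM in the rescue experiment, had few counts, which limits its values.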

Other observations

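The January libraries analysed here were of MCM2-2A clones alone, since those of WT#5 were not analysed here, and entered no comparison within their batch. The summed SINE level was 11849 CPM in MCM2-2A#1 and 17440.4 CPM in MCM2-2A#2. The 29 SINE subfamilies not named Mm or Mus had 8.67 counts per DNA transposon count in MCM2-2A#1 and 8.81 in MCM2-2A#2, within the range of the other clones, while B2_Mm1a had 2.06 and 1.21 counts per B3 count.

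Technical runs of 1 rescue culture gave like SINE shares, with 2.54% and 2.51% of counts in MCM2-2A#2 culture 4 and 1.96% and 1.95% in WT#1 culture 3.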
